A study of Anthoceros agrestis with 2 samples.

Results

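The bins described here are the stretches of the *Anthoceros agrestis* genome in which CG methylation was unequal between the replicates of one and the same tissue. CG sites with at least 5 reads were taken in each replicate, their levels (methylated reads divided by all reads) were averaged in 1 kb bins counted from position 1 of the chromosome scaffolds AnagrOXF.S1 to S6, and bins with at least 20 such sites in each replicate were eligible. A bin was chosen by a difference of at least 15 percentage points between the replicates, and such bins are called differing bins below. There were 2934 of them among 90335 eligible bins, or 3.25%, and 124405 bins in all. Because the members were selected on this contrast, their CG difference is a description and was not tested.

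Both samples were thalli, the flat vegetative body of the haploid gametophyte, from wild-type plants of the Oxford strain of this hornwort at an age of 4 weeks. All plants were grown on 0.5 Gamborg's B5 agar in continuous white light, and no treatment or mutant was included. Methylation was read by EM-seq (Enzymatic Methyl-seq), in which enzymes convert unmethylated cytosines, so that these are read as thymine, and methylated ones are still read as cytosine. The methods call the libraries biological replicates, although the labels do not say whether they came from separate cultures, so differences between plants and technical differences cannot be told apart. Replicates 1 and 2 held 323429467 and 325691541 cytosine calls with a median of 4 reads per cytosine in each, and 47.9% and 48.7% of CG sites reached 5 reads.

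In plants, CG methylation is copied after replication by MET1, which acts on the symmetric CG pair of both strands, whereas CHG methylation (H is A, C or T) is kept up by chromomethylases that read histone H3 lysine 9 methylation. Sequences silenced as heterochromatin, such as transposable elements, usually carry both, and CG methylation without CHG is best known from the bodies of genes in flowering plants. CHH methylation needs to be set anew each time. Levels in CG and CHG therefore tell apart kinds of methylated DNA, and the symmetric copying of CG lets the strands be compared.

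Sequence from 5 differing bins is shown to place the CG sites on which the results turn. The stretches of 200 bases are the plus strand of the Oxford assembly, put together from the cytosine contexts in the reports, in lower case with each CG in capitals, and n marks a base that those contexts leave as A or T. The first comes from the bin with the largest difference (AnagrOXF.S6:3337001-3337200), where replicate 1 covered all 26 CG cytosines and replicate 2 covered 0 with 5 reads.
S6 edge: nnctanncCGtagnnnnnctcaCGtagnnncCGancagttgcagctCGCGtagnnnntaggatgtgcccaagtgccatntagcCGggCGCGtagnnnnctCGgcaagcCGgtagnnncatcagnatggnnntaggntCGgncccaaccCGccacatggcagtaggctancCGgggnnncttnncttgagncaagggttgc
The second comes from the largest difference in the other direction (AnagrOXF.S5:4568746-4568945), in the unmethylated part of that bin.
S5 unmethylated part: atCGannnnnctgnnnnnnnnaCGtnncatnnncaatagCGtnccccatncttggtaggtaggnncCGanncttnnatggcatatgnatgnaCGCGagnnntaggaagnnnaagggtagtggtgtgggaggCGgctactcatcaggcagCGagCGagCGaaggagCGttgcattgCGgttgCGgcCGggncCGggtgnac
The third lies in the first bin of a run of 3 adjacent differing bins (AnagrOXF.S1:30927178-30927377), across a change from unmethylated to methylated sites.
S1 run: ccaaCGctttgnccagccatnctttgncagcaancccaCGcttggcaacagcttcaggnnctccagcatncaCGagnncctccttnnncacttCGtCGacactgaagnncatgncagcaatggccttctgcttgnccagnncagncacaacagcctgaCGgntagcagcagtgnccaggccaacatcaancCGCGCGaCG
The fourth lies in the middle bin of a run with almost no CHG methylation (AnagrOXF.S5:3681044-3681243), where 10 CG cytosines were covered in both replicates. That bin had CG levels of 54.2% and 34.8% in replicates 1 and 2.
S5 run: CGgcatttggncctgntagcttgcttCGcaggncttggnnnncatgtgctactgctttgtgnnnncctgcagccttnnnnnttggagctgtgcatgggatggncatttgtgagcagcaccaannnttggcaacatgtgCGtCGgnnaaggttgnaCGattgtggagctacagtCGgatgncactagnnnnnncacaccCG
The fifth comes from the bin with the largest difference over sites covered in both replicates, among differing bins with at least 20 such sites (AnagrOXF.S6:10807373-10807572), with 22 CG pairs in its 200 bases.
S6 intermediate: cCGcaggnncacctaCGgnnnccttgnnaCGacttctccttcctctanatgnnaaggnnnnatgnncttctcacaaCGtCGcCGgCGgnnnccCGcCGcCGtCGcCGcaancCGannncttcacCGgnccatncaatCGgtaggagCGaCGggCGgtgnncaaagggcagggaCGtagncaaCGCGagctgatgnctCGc

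Most differing bins held middle levels. Their CG level, averaged over the replicates, had a median of 43.8% and ranged from 7.94% to 91.2%, while the other 87401 eligible bins had a median of 7.72% and quartiles of 0.123% and 94.1%. The rule bounds this range, since a difference of 15 points cannot occur with a mean close to either end of the scale. The absolute difference had a median of 19.7 points. It reached 20 points in 1407 bins, 30 in 308, 40 in 80, 50 in 17 and 60 in 3, and the largest was 67.8 points. The limit of 15 points cuts through a continuous range. The 413 bins from 15 to under 16 points had a median CG level of 43.1% and a median CHG level of 0.750%, and the 451 bins from 14 to under 15 points, just outside, had 45.4% and 0.925%. Nearest inside were AnagrOXF.S2:17691001-17692000 with 61.0% and 76.0% in replicates 1 and 2 and AnagrOXF.S2:21618001-21619000 with 80.9% and 65.9%. Nearest outside were AnagrOXF.S1:27247001-27248000 with 29.2% and 14.2% and AnagrOXF.S1:28314001-28315000 with 94.2% and 79.2%.

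Replicate 1 was the higher one in 1773 differing bins (60.4%; 1.96% of eligible bins) and replicate 2 in 1161 (1.29% of eligible bins). The share was near 60% at every size of difference up to 40 points, at 60.4% from 20 points, 59.1% from 30 and 56.3% from 40. It ranged from 56.6% on chromosome 2 to 66.8% on chromosome 5. Over the 6 chromosomes the mean level of CG sites with 5 reads was 37.2% in replicate 1 and 35.4% in replicate 2, 1.85 points apart. At the 2987284 CG sites with 5 reads in both replicates the levels were 35.2% and 34.9%, 0.348 points apart.

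**Figure D1:**
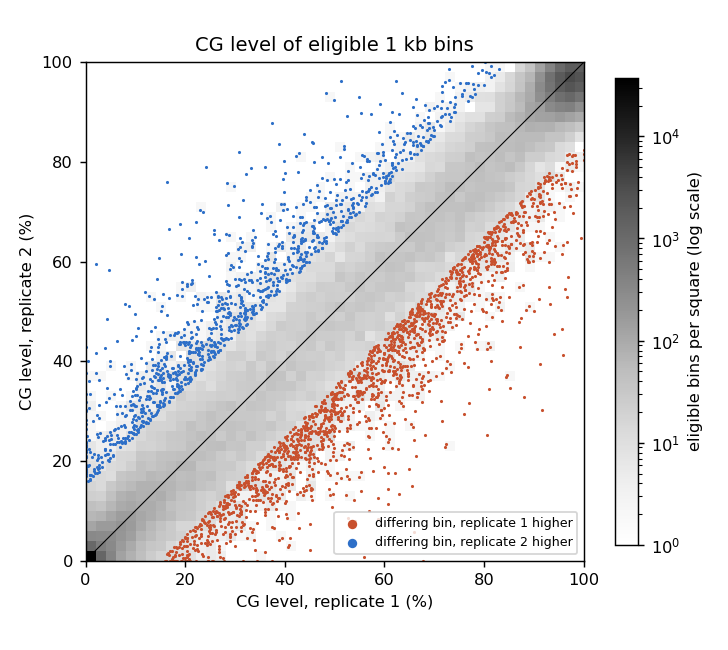
CG level (%) of 1 kb bins in replicate 1 (x axis) and replicate 2 (y axis). Grey squares count all 90335 eligible bins on a log scale, red points are the 1773 differing bins higher in replicate 1 and blue points the 1161 higher in replicate 2, and the line marks equal levels. The eligible bins crowd into both ends of the line, and the differing bins fill its middle range on either side.

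Bins were sorted into classes by the mean of both replicates. Bins at 50% CG or more were called methylated where CHG reached 30%, bins with weak CHG where it lay from 10% to below 30%, and bins with CG but without CHG where it was below 10%. Of the others, partial bins had CG from 5% to below 50%, and unmethylated bins were below 5% in both. Partial bins made up 1733 of the differing bins (59.1%) and 14.5% of eligible bins. Bins with CG but without CHG gave 512 (17.5%), methylated bins 458 (15.6%) and bins with weak CHG 231 (7.87%). Unmethylated bins were 46.3% of eligible bins and gave 0, which the rule fixes, since a difference of 15 points puts the mean above 5%.

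The classes differed in how often they held a differing bin. Of the bins with weak CHG, an uncommon class of 1152, 20.1% were differing bins, compared with 13.2% of 13109 partial bins, 9.38% of 5461 bins with CG but without CHG and 1.60% of 28569 methylated bins, against 3.25% over all eligible bins. The rule shuts out bins close to full methylation, which count among the methylated bins. The direction also varied. Replicate 1 was higher in 74.8% of differing bins with CG but without CHG, in 61.9% of those with weak CHG, in 58.1% of methylated and in 56.6% of partial ones. Under the limit the classes were closer. Replicate 1 was higher in 57.4% of 28111 methylated bins, 53.7% of 11376 partial bins and 50.4% of 921 bins with weak CHG. Of the 4949 bins with CG but without CHG, 59.2% were higher in replicate 1 with a median difference of 1.62 points over all covered sites and 1.57 points over sites covered in both.

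**Figure D2:**
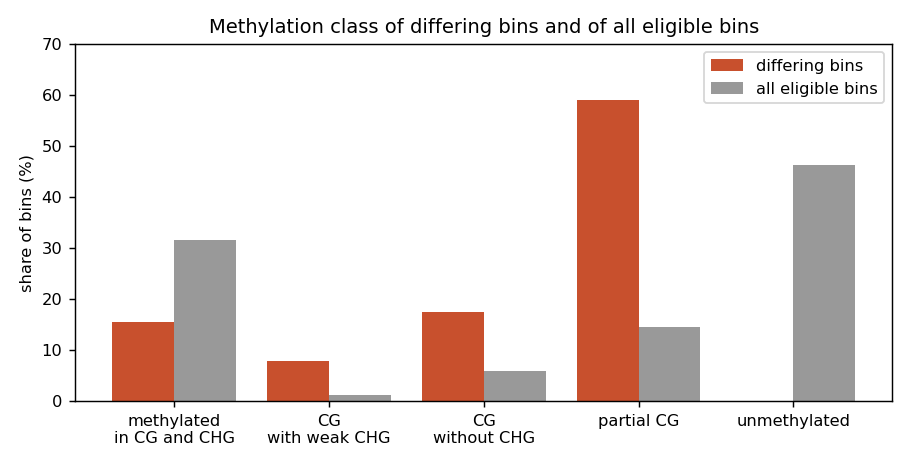
Share of differing bins (red) and of all eligible bins (grey), in percent on the y axis, in each methylation class on the x axis. Partial bins are 59.1% of differing bins and 14.5% of eligible bins, and unmethylated bins are 0% and 46.3%.

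The class itself was often not the same in both replicates. Classed in each replicate alone, 1687 differing bins (57.5%) had one class, compared with 95.3% of other eligible bins. The classes are cut on the CG level that the rule used. A bin chosen for a large difference crosses a cut more easily, so this contrast follows in part from the rule. The most frequent changes were from CG without CHG in replicate 1 to partial in replicate 2 (285 bins, and 137 the other way), and from methylated in replicate 1 to partial in replicate 2 (174 bins, and 127 the other way). A bin that was partial in replicate 1 and unmethylated in replicate 2 occurred 97 times, and the opposite 87 times.

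CHG methylation was low in the typical differing bin and wide in range. The median CHG level was 6.04% over both replicates, 4.94% in replicate 1 and 5.03% in replicate 2, and the upper quartile was 24.6%. Other eligible bins had a median of 0.196% with an upper quartile of 56.1%. The other partial bins had a median of 0.188% with an upper quartile of 5.47%, and the differing bins of the partial class alone a median of 3.45%. The other partial bins also had less CG methylation, with a median of 18.9% compared with 43.8% in all differing bins. CHG stayed below 1% in both replicates in 1147 differing bins (39.1%) and in 56.2% of other eligible bins. CHH levels had medians of 0.1997% and 0.0809% and reached 10.8% in differing bins and 20.3% in the others.

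Over the CHG sites that each replicate covered, large CHG differences mostly had the direction of CG. The CHG difference, counted in the direction of the CG difference, had a median of 1.15 points and a 90th percentile of 16.9 points. Of 2764 differing bins with at least 20 covered CHG sites in each replicate, 332 (12.01%) were at least 15 points apart in CHG, beside 1.96% of all 88265 bins with such coverage. The direction was that of CG in 329 and the opposite in 3. The CG and CHG sites of a bin are covered by the same reads, so these values are not separate samples of the bin. Each replicate was also read on its own CHG sites. Over CHG sites covered in both, the median difference in the direction of CG was 0 points in 1334 differing bins. These bins did not stay 15 points apart over CG sites covered in both replicates. In 106 that did, described below, the median was 0.242 points. The largest CHG differences were at AnagrOXF.S2:8186001-8187000 (12.4% over 32 sites against 59.1% over 6 sites in replicates 1 and 2), AnagrOXF.S3:16794001-16795000 (57.9% over 36 sites against 16.8% over 73, with CHH of 14.96% and 6.64%) and AnagrOXF.S3:16225001-16226000 (49.2% over 21 sites against 8.77% over 44). At CHG sites covered in both replicates, the latter pair had 39.9% against 36.3% over 21 sites and 36.5% against 25.7% over 15 sites, and the first had 1 such site.

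Differing bins were thinner in covered sites than the rest. They had a median of 33 covered CG sites in each replicate, compared with 43, and 61 CG cytosines in the bin, compared with 73. Other partial bins had medians of 38 and 39 covered sites and 62 CG cytosines. Reads per covered site were similar, with medians of 6.71 and 6.77 in replicates 1 and 2, compared with 6.81 and 6.85. The replicates often covered different cytosines. Sites with 5 reads in both replicates, called shared sites, numbered a median of 19 per differing bin and were 41.1% of the sites covered in either, compared with 28 and 49.0% in other eligible bins.

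Over shared sites most of the differences were small. The absolute difference had a median of 3.53 points in the 2784 differing bins with at least 10 shared sites, compared with 0.768 in other eligible bins and 1.96 in other partial bins. Of the 1449 differing bins with at least 20 shared sites, 108 (7.45%) stayed at least 15 points apart in the same direction, 921 (63.6%) were under 5 points apart and 378 (26.1%) had the opposite sign. Over all 68287 bins with 20 shared sites, 0.31% were 15 points apart on these sites. The rest of the differing bins had fewer shared sites and are not in this count.

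The sites covered by each replicate were then compared inside a single replicate, so that the levels came from 1 library at a time. In replicate 1 alone, its own covered sites and the sites covered by replicate 2 (where read at all in replicate 1) differed by a median of 17.7 points in the direction of the bin, and by at least 15 points in 1906 differing bins (65.0%). In replicate 2 alone the median was 17.6 points, with 1894 bins (64.6%) at 15 points or more. The direction was that of the bin in 98.0% and 97.8% of differing bins. Each comparison holds the level that the rule used for that replicate, so the choice of bins pushes these values in the direction of the bin, and they are a description.

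**Figure D3:**
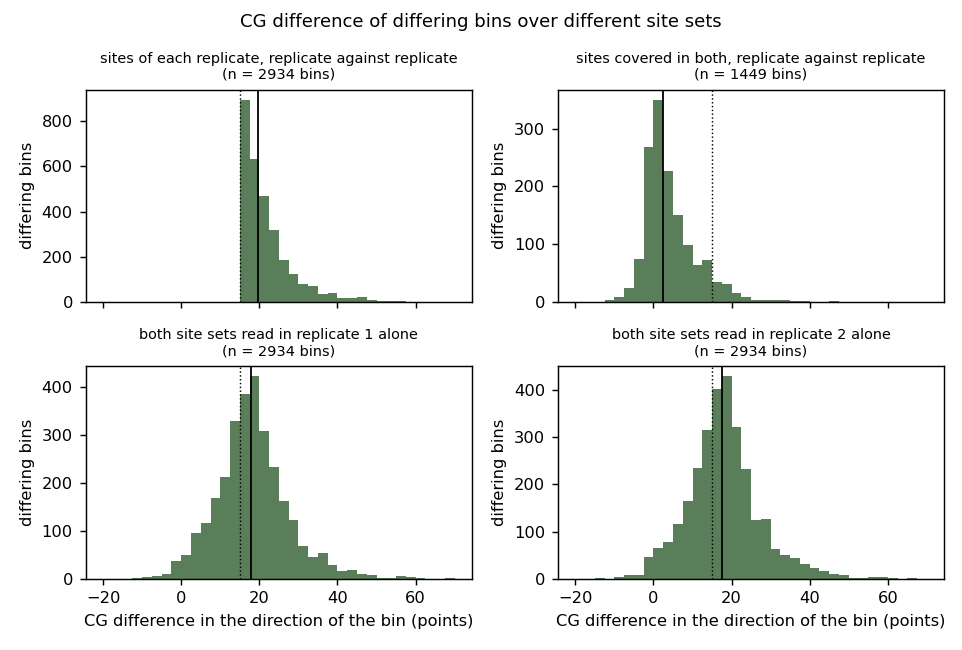
CG difference in the direction of the bin (x axis, percentage points) against the number of differing bins (y axis) for 4 comparisons: replicates over the sites each covered, replicates over shared sites (1449 bins), and the site sets of both replicates read in replicate 1 alone or in replicate 2 alone. Solid lines are medians and dotted lines mark 15 points, and the shared-site values gather near 0 while the values within 1 replicate have medians of 17.7 and 17.6.

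Many differing bins held methylated and unmethylated stretches side by side. In 2053 of them (69.97%) at least 20% of sites were below 20% and at least 20% were at 80% or more in the pooled reads of both replicates, which is called mixed here, compared with 8.77% of other eligible bins and 37.2% of other partial bins. The left and right part of the bin, split at its middle, were at least 50 points apart in 57.2% of differing bins, 5.56% of other eligible bins and 31.2% of other partial bins. The bins on both sides were at least 50 points apart in 1235 of 1993 differing bins with eligible neighbours (62.0%), compared with 20.6% and 51.2%. The lower neighbour had a median level of 0.235% and the higher one 78.6%. A differing bin thus often lay between an unmethylated and a methylated bin.

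Mixing and unshared sites went together with membership. Of 9718 mixed bins 21.1% were differing bins, and of 80617 others 1.09%. The others include the 41861 unmethylated bins and bins close to full methylation, which the rule shuts out, so this contrast follows in part from the rule. Within the partial class, 69.8% of differing bins and 37.2% of the other bins were mixed. Among mixed bins the share of differing bins fell with the share of sites covered in both replicates, from 57.5% where under 20% of the covered sites were shared, through 35.7%, 19.1% and 7.63% in steps of 20 points, to 0.704% (1 of 142 bins) where 80% or more were shared. Among bins that were not mixed it went from 2.75% to 0.755%. Coverage, mixing and difference were taken from the same reads, and their part in the result was not tested beyond these counts.

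The bin with the largest difference had 67.8% in replicate 1 over 34 sites and 0% in replicate 2 over 27 sites (AnagrOXF.S6:3337001-3338000). The 189 calls at these 27 sites, if each is taken as separate, allow a share of up to 1.59% at the sites themselves. The bin starts with a methylated stretch from base 9 to 150, which lies within the bases printed above. There replicate 1 covered 24 CG cytosines with 5 reads and replicate 2 covered 0. All reads of that stretch together were methylated at 95.2% of 208 calls in replicate 1 (95% Wilson interval 91.4% to 97.4%) and at 91.3% of 69 calls in replicate 2 (82.3% to 96.0%). The rest of the bin had 0.725% of 138 calls (0.128% to 3.99%) and 0.909% of 220 calls (0.250% to 3.25%). The 6 shared sites were at 0% in both. Such intervals cover counting error only. They treat each call as separate, although the same read can give calls at several sites, so they are too narrow.

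The largest differences in the other direction had the same layout. AnagrOXF.S5:4568001-4569000 had 16.3% in replicate 1 over 21 sites and 75.9% in replicate 2 over 26 sites. Bases 26 to 408 were methylated at 98.6% of 72 calls in replicate 1 (92.5% to 99.8%) and 98.0% of 149 in replicate 2 (94.2% to 99.3%), and 2 and 20 of its cytosines reached 5 reads. Bases 664 to 989 were at 5.00% of 160 calls (2.56% to 9.56%) and 1.41% of 142 calls (0.387% to 4.99%), with 19 and 6 covered cytosines. AnagrOXF.S4:9898001-9899000 (2.10% and 59.6%) had 0 and 27 covered cytosines in its methylated stretch, where all calls gave 99.1% of 106 (94.8% to 99.8%) and 96.7% of 215 (93.4% to 98.4%). AnagrOXF.S1:10490001-10491000 had 24.2% and 79.1%, and 69.9% and 68.0% over its 17 shared sites. In each of these bins the level within a stretch was close in the replicates and the number of covered sites in the stretch was not.

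The other bins among the largest differences higher in replicate 1 were AnagrOXF.S6:5618001-5619000 with 91.6% and 30.1% and AnagrOXF.S4:14165001-14166000 with 66.0% and 5.77%. Over shared sites the difference was 7.93 points in the first (17 sites) and 6.19 points in the second (7 sites).

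**Figure D4:**
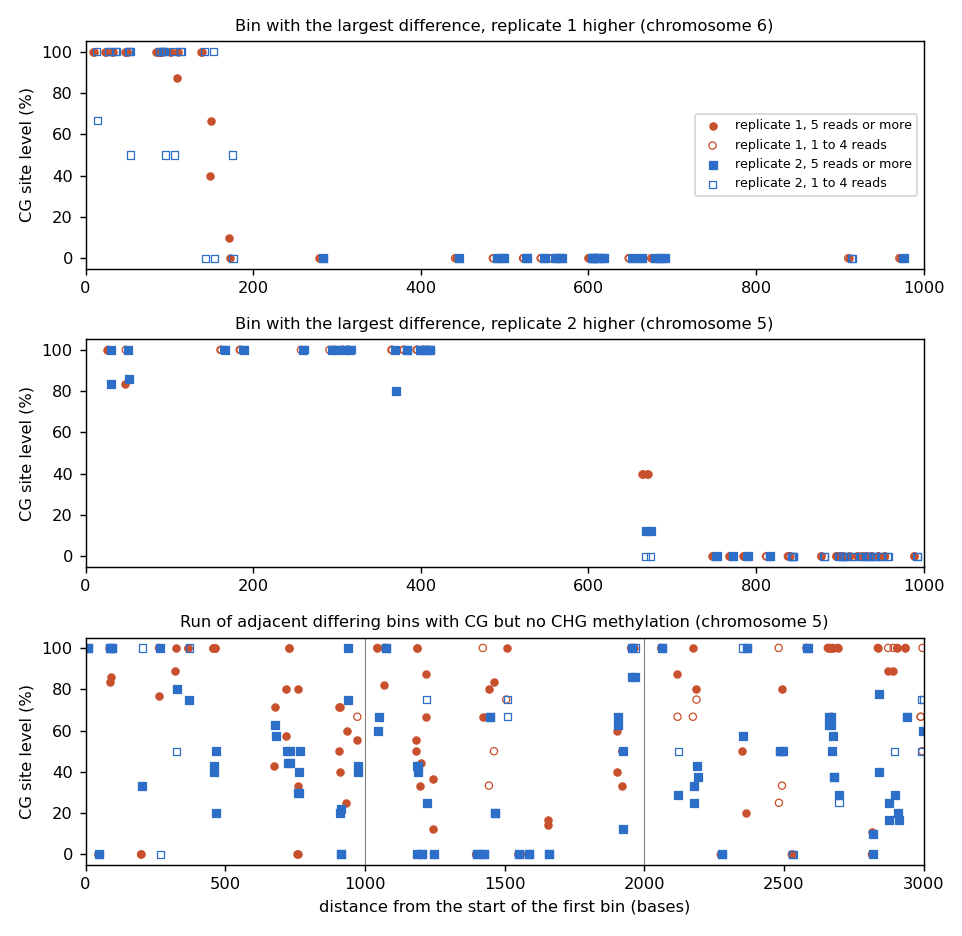
Level of single CG cytosines (y axis, %) along bins (x axis, bases from the start of the first bin) for replicate 1 (red circles) and replicate 2 (blue squares, drawn 4 bases to the right), filled with 5 reads or more and open with 1 to 4. In the upper panels the replicates follow the same step from methylated to unmethylated but fill it with different covered sites, and in the lower panel, 3 adjacent bins on chromosome 5 with grey lines at the bin ends, many sites of replicate 2 lie below those of replicate 1.

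Differing bins were spread over the genome. They were 3.28%, 3.44%, 3.65%, 3.09% and 3.48% of eligible bins on chromosomes 1 to 5 and 1.70% (116 of 6814) on chromosome 6, where 57.9% of bins were eligible, compared with 72.4% to 76.4% on the others. In the 121 blocks of 1 Mb their share ranged from 0.677% to 5.91% with a median of 3.22%, and every block held at least 1.

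They clustered weakly. Among 4840 pairs of a differing bin and an eligible bin next to it, each counted from the differing bin, the neighbour was a differing bin in 5.04%, beside 3.25% of all eligible bins, and the share was 4.00% at 2 kb and 3.57% at 10 kb. It did not fall evenly, with 4.38% at 3 kb and 4.26% at 13 kb. Adjacent pairs numbered 122, and both bins had the same direction in 79 (64.8%), while 97 pairs at 2 kb had it in 60.8% and 83 pairs at 10 kb in 55.4%. At 4, 6 and 11 kb the share was 49.5%, 45.8% and 61.1%. Because 60.4% of differing bins were higher in replicate 1, unrelated pairs would also share a direction somewhat more often than not. In total 236 differing bins (8.04%) touched another. Runs of one direction held 1 bin in 2782 cases, 2 in 67 and 3 in 6, and none was longer. The nearest differing bin was a median of 12 kb away and at most 317 kb.

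**Figure D5:**
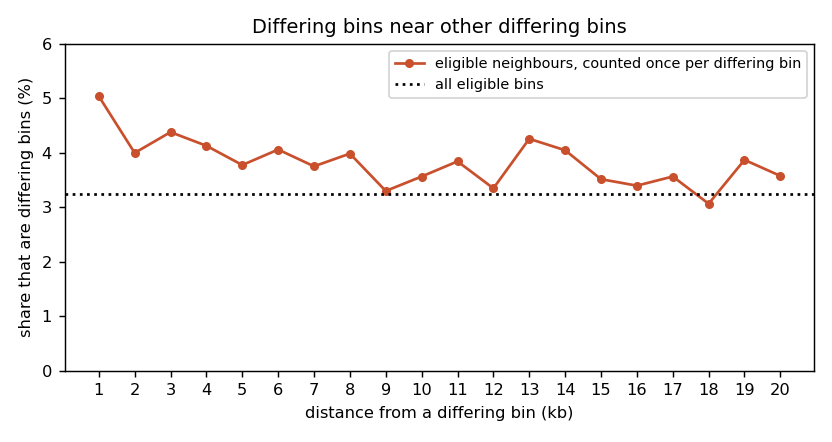
Share of eligible neighbours that are differing bins (y axis, %) by distance from a differing bin (x axis, kb), as red points joined by a line, with a neighbour counted once for each differing bin at that distance. The dotted line is the share over all eligible bins, 3.25%, and the share falls from 5.04% at 1 kb to 4.00% at 2 kb.

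Of the 6 runs of 3 bins, the 3 with the largest summed difference are described. In AnagrOXF.S1:30927001-30930000 the levels were 76.7% and 38.9% in the first bin, 85.0% and 61.8% in the second and 16.1% and 0% in the third, for replicates 1 and 2. Over shared sites they were 73.5% and 61.7% (12 sites), 85.0% and 60.9% (16 sites) and 0% and 0% (18 sites), so the middle bin kept its difference and the third did not. The third bin was at 0% in replicate 2 only at sites with 5 reads. The 201 calls there, if each is taken as separate, allow a share of up to 1.49% at these sites. Its bases 7 to 133 had 0 such sites in replicate 2, and the 16 calls there were methylated at 93.8% (95% Wilson interval 71.7% to 98.9%). CHG was at most 0.290% in the run.

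In AnagrOXF.S5:3680001-3683000 all bins kept their difference. Replicates 1 and 2 had 67.8% and 49.99%, 54.2% and 34.8%, and 80.3% and 47.1% over all covered sites. Over shared sites they had 67.1% and 49.1% (27 sites), 54.9% and 32.5% (23 sites), and 83.6% and 51.7% (16 sites). Both strands were higher in replicate 1 in the first and second bins. In the third, replicate 1 minus replicate 2 was 42.7 points on the plus strand (14 shared sites) and -43.6 points on the minus strand (2 sites). The site sets of the replicates were at most 3.62 points apart when read in 1 replicate. CHG was at most 0.185%. The bin before the run went the other way, with 54.7% and 61.6% over 19 shared sites, the bin after it had 13.3% and 16.7% over 6, and the next one 0% in both.

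In AnagrOXF.S5:4939001-4942000 replicate 2 was higher in all 3 bins, with 24.9% and 40.5%, 6.17% and 31.0%, and 61.5% and 90.1%. Shared sites gave 32.0% and 32.5% (16 sites), 8.15% and 13.0% (18 sites), and 83.9% and 81.7% (24 sites). This run led from a bin at 0.343% and 1.66% to one at 96.6% and 98.6%, and CHG rose along it to 34.6% and 58.6% in the last bin.

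The strands gave a comparison that did not use the same molecules, because cytosines of the plus and the minus strand are read from different DNA strands. In 65938 bins with at least 10 covered CG sites on each strand in each replicate, 5.39% were at least 15 points apart on the plus strand and 5.4% on the minus strand. Bins chosen on the plus strand (3555) had a median difference of 21.7 points there and 1.29 points, in the same direction, on the minus strand. The minus strand was 15 points apart in the same direction in 645 (18.1%) and in the opposite direction in 547 (15.4%), and had the same sign in 53.9%. Choosing on the minus strand gave 3561 bins with a median of 0.993 points on the plus strand. Both directions exceeded the share over all such bins, and the same direction exceeded the opposite by 645 to 547.

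On shared sites alone fewer bins passed and the directions were farther apart. Of 43119 bins with 10 shared sites on each strand, 0.682% were 15 points apart on the plus strand and 0.689% on the minus strand. Of the 294 chosen on the plus strand, 30 (10.2%) were 15 points apart on the minus strand in the same direction and 9 (3.06%) in the opposite one, with a median of 2.17 points in the same direction. Most single-strand differences were thus not met by one of like size on the other strand.

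Of the 108 differing bins that stayed 15 points apart over at least 20 shared sites, replicate 1 was higher in 77. Their shared-site difference had a median of 18.9 points and a maximum of 46.5, and 11 reached 30. They comprised 48 partial bins, 37 with CG but without CHG, 18 methylated and 5 with weak CHG. As a share of differing bins with 20 shared sites, this was 16.2% of those with CG but without CHG, 8.65% of methylated, 5.26% of weak CHG and 5.23% of partial ones. They lay on all chromosomes, with 33, 22, 17, 10, 16 and 10 on chromosomes 1 to 6, and 4 touched another of the 108. These bins were selected on the same reads, so the values are a description.

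CHG was mostly low in them. Their median CHG level was 0.424%, and CHG was under 1% in both replicates in 54. Over shared CHG sites, 17 of 106 were 15 points apart in the direction of CG and 0 in the other direction. Of the 50 with at least 10 shared sites on each strand, 39 were at least 10 points apart in the same direction on both strands and 1 had strands in opposite directions. The bins were kept on the sites of both strands together, which favours strands of the same direction, so these counts follow in part from the choice. Of 124 adjacent bins with 20 shared sites, 28 were at least 5 points apart in the same direction and 4 in the opposite one, compared with 104 and 57 of 1694 next to the differing bins that did not stay apart.

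Single bins among the 108 were named after their values were seen. Their largest shared-site difference was at AnagrOXF.S6:10807001-10808000, with 21.3% in replicate 1 and 67.9% in replicate 2 over 33 shared sites, all of the sites that replicate 2 covered. Its sites were covered with 7.205 and 7.06 reads on average, and 44 of its 142 CG cytosines reached 5 reads in replicate 1. Whether this sequence occurs in more than 1 copy was not examined, and in a repeated sequence a level would be an average over copies. CHG was 13.6% and 31.4%, and replicate 1 minus replicate 2 was -57.3 points on the plus strand (20 shared sites) and -30.0 points on the minus strand (13 sites). Other large ones were higher in replicate 1. AnagrOXF.S2:20163001-20164000 had 89.0% and 51.4% over 31 shared sites with CHG of 54.9% and 31.7%, and AnagrOXF.S5:149001-150000 had 86.5% and 51.2% over 20.

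The largest shared-site differences without CHG were at AnagrOXF.S6:9235001-9236000 (75.3% and 38.7% over 23 shared sites), AnagrOXF.S2:25033001-25034000 (52.6% and 20.1% over 28) and AnagrOXF.S1:5066001-5067000 (74.4% and 43.8% over 21), each higher in replicate 1 with CHG of at most 0.507%. Plus and minus strand gave 33.7 and 31.6 points in the second and 29.1 and 32.8 points in the third. The printed part of the run on chromosome 5 belongs to the same kind, with 64.0% and 39.8% at its covered cytosines. Genes and transposable elements at these bins were not analysed here.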

How the data were processed

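EM-seq was applied to 2 replicates of 1 group, and no treated or mutant samples were compared. The authors trimmed the reads, aligned them to the Oxford assembly using Bismark (Bowtie2 option) and discarded duplicates. They deposited, as the authors' values, counts of reads calling each cytosine methylated or unmethylated, without normalization. A further report with merged reads was not used here.

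Levels were averaged over cytosines with at least 5 reads, which weights sites equally and drops thinly read ones, so each replicate is measured on its own set of sites. CHG levels needed at least 5 covered sites in each replicate. Positions count from 1. No tests were made, because the members were selected on the contrast between the only replicates. The members, classes and lists were chosen with earlier results of these data known. Named regions were the 3 largest differences in each direction, 3 of the 6 longest runs of 1 direction (ties taken by the largest summed difference), the 3 largest CHG differences, and the 2 bins nearest to the limit on either side. Bins kept over shared sites were named after their values were seen. Intervals are 95% Wilson intervals over calls summed across sites, and they treat calls from the same read as separate.

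Alternatives changed the read and site minimum, the limit, the bins, the site set, the averaging, the centring, the depth limit, the CHG limit and the replicate that set the class. On simulated reads over the 6814 eligible bins of chromosome 6, 200 of 200 bins with a large planted shift (median difference 40.2 points) were found and 1 other bin was called. This checks the calculation and not the recovery of differences near the limit. All sites of a simulated bin had the same expected level in a replicate. Calls in bins that hold methylated and unmethylated stretches were therefore not checked. Python 3.11.15, NumPy 2.4.6, SciPy 1.17.1, PyArrow 21.0.0 and Matplotlib 3.10.9 were used.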

Additional observations from a re-analysis of the deposited data

How the results depend on the processing

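Of 89 alternative values, 32 stayed within the limits set for them and 57 moved further. The limits were counting error for a share and 1.5 times for a count of bins. For the median CHG level the limit was the standard deviation of the medians of replicates 1 and 2 (4.94% and 5.03%), so small CHG changes count as moved. A reversal was not among the outcomes that were looked for. Values follow in the order number of differing bins, share higher in replicate 1, median CHG level, share with CG but without CHG, and share touching another, and a quantity that is not given did not move beyond its limit. As reported they were 2934 of 90335 eligible bins, 60.4%, 6.04%, 17.5% and 8.04%. A count of bins also depends on the number of eligible bins, which is given after the count where it changed.

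A read minimum of 4 gave 1925 of 102955 eligible bins, 63.9% higher in replicate 1, CHG 11.0% and 5.40% touching. One of 10 gave 27 of 1720 bins, 66.7%, CHG 33.1%, 0% without CHG and 0% touching. With 10 CG sites CHG was 7.28% and 11.5% touched. With 40 sites there were 490 of 40482 bins, CHG 14.8%, 6.73% without CHG and 2.45% touching. A limit of 10 points gave 6342 bins, CHG 1.70%, 20.6% without CHG and 16.7% touching, one of 20 points gave 1407 bins, CHG 11.8%, 12.1% and 3.77%, and one of 30 points gave 308 bins, CHG 18.4%, 5.19% and 0%. Bins shifted by 500 bases gave CHG 6.36% and 7.03% touching. Bins of 500 bases with a minimum of 10 sites gave 5295 of 162976 bins, CHG 0.241%, 30.7% without CHG and 11.4% touching. Bins of 2000 bases with a minimum of 40 sites gave 1510 of 49214, 63.0% higher in replicate 1, CHG 16.4%, 7.42% and 6.23%. Methylated reads over all reads gave CHG 5.48%. An upper limit on depth moved none of the quantities beyond its limit. Centring on the median difference could not move any, because that median is 0, and its 5 values are among the 32. A CHG limit of 20% put 20.1% without CHG.

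Shared sites gave 212 of 68287 eligible bins, 70.8% higher in replicate 1, CHG 0.681%, 37.7% without CHG and 2.83% touching. Sites with 3 reads in both replicates, chosen after seeing the data, gave 344 of 106139 bins, 71.5%, CHG 3.84% and 35.8% without CHG. Centring on the mean difference, also chosen after seeing the data, gave 57.1% higher in replicate 1 and CHG 6.19%. With the class set by 1 replicate, CHG ranged from 4.94% to 5.03% and the share without CHG from 14.9% to 20.1%. For the other strand, the share at 15 points in the same direction was 18.1%, 16.8% with 20 sites on each strand and 10.2% on shared sites, the last chosen after seeing the data. The cause of these shifts was not tested. Stricter minimums left fewer eligible bins. The looser read minimum of 4 left more eligible bins (102955 against 90335) but fewer differing bins (1925 against 2934).

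No paired analysis was possible because there is 1 group and no result comes from a test. With 2 replicates a difference between them has no error of its own, and a median of 4 reads per cytosine leaves 47.9% and 48.7% of CG sites covered.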
